A study of Mus musculus with 9 samples.

Results

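Lgr5 and 7 further genes that mark stem cells at the base of the intestinal crypt were followed through 3 cultures of mouse duodenum. The 8 genes, Lgr5, Ascl2, Olfm4, Smoc2, Msi1, Cdca7, Slc12a2 and Lrig1, were taken by name from a table of 24505 genes, and all 8 had values high enough to be among the 16563 genes tested. The same names selected 33 of the 49405 regions in the authors' tables of H3K27me3, the histone mark deposited by the Polycomb complex PRC2 at silenced genes. Transcription was read by GRO-seq (global run-on sequencing of RNA held by engaged polymerase) in 2 libraries of each culture. RANKL is labelled as intestinal M cell, ENRI as enterocyte and WENRC as intestinal stem cell, and all are mini-guts, organoids grown from the duodenum. H3K27me3 was read by ChIP-seq in 2 RANKL libraries, which the authors pooled, and in 1 WENRC library.

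The labels spell out neither the culture abbreviations nor the strain, age or genotype of the mice, so the abbreviations stand here as names. The ENRI and WENRC libraries carry a mouse number, with 1 library of each culture from mouse 1 and from mouse 2. The RANKL libraries carry a replicate number only, and the table's header gives them as combined reads of a repeat sequencing, so an effect of that sequencing and one of the culture cannot be told apart. No source states that the RANKL libraries came from separate animals, so their p-values may measure technical spread. GRO-seq values are on the authors' normalized log2 scale, and errors are SDs over 2 libraries. Gene and region coordinates are those of mm9.

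Lgr5 is the receptor through which R-spondins raise Wnt signalling, and in the small intestine it marks the crypt base columnar cells, which divide and renew the epithelium. Wnt signalling keeps these cells as stem cells and switches on Lgr5 itself and the transcription factor gene Ascl2, while Notch signalling is known to maintain Olfm4. Their daughters move up the crypt and villus and become absorptive enterocytes or secretory cells. M cells, which carry antigen across the epithelium over lymphoid follicles, arise from crypt progenitors after exposure to the cytokine RANKL.

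Other facts of the libraries bear on every value below. The 2 ENRI libraries were the least alike: over all tested genes their difference had an SD of 0.699, against 0.421 for WENRC and 0.22 for RANKL. All 9 M cell markers read higher in RANKL than in either other culture. Of these, 8 were called against WENRC and 9 against ENRI, where 8.53% and 10.4% of all tested genes were called higher. Their summed log2 level was 13.39 to 13.46 in RANKL against 10.23 to 10.87 elsewhere. The marker lists were chosen with earlier results of these data known, so they are no independent check of the labels. Of 10 enterocyte markers, 8 were called lower in WENRC than in ENRI and 5 were called lower in RANKL than in ENRI. Of all tested genes 9.74% and 10.5% were called lower there. None of the 10 read higher in WENRC than in ENRI, and 1 read higher in RANKL than in ENRI. Their summed log2 level was 15.68 to 16.48 in ENRI, 14.73 to 14.87 in RANKL and 12.43 to 13.34 in WENRC. All 12 proliferation markers read higher in WENRC than in ENRI, and 10 were called, where 4.85% of all tested genes were called higher. Their sums were 12.87 to 13.05 in WENRC, 12.69 to 12.84 in RANKL and 11.62 to 12.07 in ENRI. Of 7 fibroblast markers only Pdgfrb reached the level for testing (9.21 and 9.26 in RANKL, 6.44 to 7.68 elsewhere). Of 6 immune markers 4 reached it, and Cd68, which read 7.51 to 8.52, was called higher in WENRC than in ENRI. Markers of secretory and tuft cells also differed. Summed Paneth levels were 11.51 to 11.63 in RANKL and 9.09 to 10.17 elsewhere, with 3 of 8 called higher in RANKL than in either other culture. Goblet sums were 13.61 to 13.65 in RANKL, 13.29 to 13.81 in ENRI and 10.84 to 11.86 in WENRC, with 3 of 7 called higher in RANKL than WENRC. Tuft sums were 9.25 to 9.32 in RANKL and 7.89 to 8.44 elsewhere, and enteroendocrine sums 10.45 to 10.9 and 8.88 to 9.96. The part of these cell type differences in the results below was not tested, and in these bulk cultures fewer cells of a type and less RNA per cell cannot be told apart.

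RefSeq promoter sequences (GRCm38.p6) were found for 4 of the 8 genes, Ascl2, Olfm4, Cdca7 and Lrig1. Those of Olfm4 and Ascl2 are printed because H3K27me3 differed at or beside these genes' start sites, and that of Lrig1 because no region of either table was assigned to it. Each runs 5′ to 3′ over the 250 bases upstream of the start, on the gene's own strand, with CpG dinucleotides in capitals. They lie at chr14:80000052-80000301 (+ strand, Olfm4), chr7:142969265-142969514 (- strand, Ascl2) and chr6:94700146-94700395 (- strand, Lrig1).
Olfm4: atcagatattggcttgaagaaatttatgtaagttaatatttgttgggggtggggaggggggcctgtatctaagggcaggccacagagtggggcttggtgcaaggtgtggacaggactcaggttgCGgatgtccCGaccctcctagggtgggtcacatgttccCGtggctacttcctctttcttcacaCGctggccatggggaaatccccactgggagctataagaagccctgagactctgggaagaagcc
Ascl2: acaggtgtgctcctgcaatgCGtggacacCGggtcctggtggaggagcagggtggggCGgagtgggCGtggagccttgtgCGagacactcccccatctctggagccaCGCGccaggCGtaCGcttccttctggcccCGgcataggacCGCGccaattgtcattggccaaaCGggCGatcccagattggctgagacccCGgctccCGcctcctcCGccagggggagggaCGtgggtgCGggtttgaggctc
Lrig1: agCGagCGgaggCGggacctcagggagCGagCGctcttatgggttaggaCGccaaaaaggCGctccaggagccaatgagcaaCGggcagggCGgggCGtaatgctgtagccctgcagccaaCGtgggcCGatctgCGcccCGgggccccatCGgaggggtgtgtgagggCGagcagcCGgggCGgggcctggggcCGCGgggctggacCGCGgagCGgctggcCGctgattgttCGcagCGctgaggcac
The Olfm4 window held 4 CpGs, and 44.4% of 32851 promoter windows of this length held as few. Ascl2 held 19 and Lrig1 26, and 19.7% and 9.59% of windows held as many, while Cdca7 held 21. The median window held 6. A GC box, GGGCGG on either strand, was present once in Ascl2 and Cdca7, 2 times in Lrig1 and not in Olfm4, and in 32.7% of all windows. None of the 4 windows held CTTTGA (a TCF/LEF core, in 13.8% of windows), CAGCTG (an E-box of the achaete-scute type, in 13.0%) or TATAAA (in 12.4%), each searched on both strands, which says only that these letters are not in these windows.

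Lgr5 (NM_010195, chromosome 10, 114887370 to 115024836, - strand) was transcribed most in WENRC. Its values were 11.64 and 11.99 in WENRC, 8.75 and 8.84 in RANKL, then 8.89 and 8.51 in ENRI. The RANKL values lay within the range of the ENRI values, and both were far below WENRC. Lgr5 was 8.1-fold lower in RANKL than in WENRC, a log2 change of -3.02 (SE 0.19, limma FDR 0.00166), and 8.68-fold higher in WENRC than in ENRI (log2 change 3.12, SE 0.19, limma FDR 0.00487). The authors' deposited log2 changes were larger, at -3.47 for RANKL minus WENRC and 3.55 for WENRC minus ENRI. Between RANKL and ENRI the log2 difference was 0.10, with a 95% interval of -0.37 to 0.57 (limma FDR 0.748). The WENRC excess over ENRI was 2.75 in mouse 1 and 3.49 in mouse 2. A930009A15Rik lies inside Lgr5 on the other strand and had the same order of cultures (7.91 and 8.49 in WENRC, 5.29 to 5.89 elsewhere); strand handling is not given in the sources used here, so their reads cannot be told apart.

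Lrig1 (NM_008377, chromosome 6, 94554523 to 94650139, - strand) encodes a transmembrane protein that restrains ErbB receptors and marks crypt stem and progenitor cells. Its values were 12.99 and 12.91 in WENRC, 12.23 and 12.30 in RANKL, then 11.84 and 11.97 in ENRI. No culture overlapped another, and RANKL lay between the other 2. Lrig1 was 1.61-fold lower in RANKL than in WENRC (log2 change -0.69, SE 0.15, limma FDR 0.0388) and 2.07-fold higher in WENRC than in ENRI (1.05, SE 0.15, limma FDR 0.0144). The difference of 0.36 between RANKL and ENRI did not pass (95% interval -0.01 to 0.73, limma FDR 0.15). With no filter on low values the call against WENRC was lost (limma FDR 0.0536), and quantile normalization gave -1.30 (limma FDR 0.0038). Lrig1 overlaps the end of Slc25a26 on the other strand and holds Mir7041.

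Ascl2 (NM_008554, chromosome 7, 150152727 to 150155169, - strand), the basic helix-loop-helix factor that sets stem cell identity downstream of Wnt, had the lowest values of the 8 genes. It read 5.24 and 5.30 in WENRC, 4.93 and 5.19 in RANKL, then 4.31 and 4.55 in ENRI. RANKL lay just under WENRC and above ENRI. Ascl2 was higher in WENRC than in ENRI by 0.84 (SE 0.20, limma FDR 0.0435), and by 0.93 and 0.76 in the 2 mice. RANKL differed from WENRC by -0.21 (95% interval -0.70 to 0.28, limma FDR 0.541) and from ENRI by 0.63 (0.14 to 1.12, limma FDR 0.0732). At such low values the deposited scale may understate changes, which was not tested. The authors' deposited table gave Ascl2 a WENRC excess over ENRI of 2.27, which did not pass (adjusted p 0.0651).

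Msi1 (NM_008629, chromosome 5, 115879694 to 115904211, + strand), the RNA-binding protein Musashi-1 of crypt stem cells, was highest in RANKL and not in WENRC. Its values were 10.02 and 10.09 in RANKL, 8.63 and 9.11 in WENRC, then 5.87 and 6.36 in ENRI. The 3 cultures were well separated. Msi1 was 15.39-fold higher in RANKL than in ENRI (log2 change 3.94, SE 0.24, limma FDR 0.0014), 2.28-fold higher in RANKL than in WENRC (1.19, SE 0.24, limma FDR 0.03) and 6.76-fold higher in WENRC than in ENRI (2.76, SE 0.24, limma FDR 0.0064). Both mice gave a WENRC excess over ENRI of 2.76. The authors' deposited log2 changes were larger, at 4.83 for RANKL minus ENRI, 1.35 for RANKL minus WENRC and 3.48 for WENRC minus ENRI. The RANKL excess over WENRC lost its call with quantile normalization (1.07, limma FDR 0.0566) and with recentring on upper quartiles (1.07, limma FDR 0.0569).

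Cdca7 (NM_025866, chromosome 2, 72314276 to 72324947, + strand), a zinc finger protein of dividing cells that acts in chromatin remodelling, had values of 9.05 and 8.94 in WENRC, 8.11 and 7.91 in RANKL, then 7.55 and 6.68 in ENRI. WENRC stood highest and the ENRI libraries spread the most. The gene was 3.67-fold higher in WENRC than in ENRI (log2 change 1.88, SE 0.29, limma FDR 0.0166). Its differences of -0.99 between RANKL and WENRC (limma FDR 0.0851) and 0.89 between RANKL and ENRI (limma FDR 0.0818) did not pass. The latter was 1.33 without ENRI 1 (limma FDR 0.00108) and 0.45 without ENRI 2 (limma FDR 0.0835).

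Olfm4 (NM_001030294, chromosome 14, 80400109 to 80421737, + strand), a secreted olfactomedin glycoprotein and a standard marker of crypt base columnar cells, was also highest in RANKL. It read 10.90 and 11.05 in RANKL, 8.83 and 9.12 in WENRC, then 5.14 and 7.41 in ENRI. The ENRI libraries differed from each other by more than RANKL differed from WENRC. Olfm4 was 25.92-fold higher in RANKL than in ENRI (log2 change 4.70, SE 0.67, limma FDR 0.0089) and 6.49-fold higher in WENRC than in ENRI (2.70, SE 0.67, limma FDR 0.0487). The latter was 3.69 in mouse 1 and 1.71 in mouse 2. Without ENRI 1 the 2 changes were 3.56 and 1.56, and without ENRI 2 they were 5.83 and 3.83. The RANKL excess over WENRC of 2.0 (95% interval 0.36 to 3.64) did not pass with all 6 libraries in the fit (limma FDR 0.112). It passed with the 4 RANKL and WENRC libraries alone (limma FDR 9.57e-05) and with the mouse as a block (limma FDR 0.0348). RANKL is paired with neither mouse, so the block takes mouse differences out of the error here, and its p-values may be too small. The excess also passed in the authors' deposited table (log2 change 2.27, adjusted p 5.46e-36).

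Smoc2 (NM_022315, chromosome 17, 14416513 to 14541797, + strand), a secreted calcium-binding matrix protein, had 12.64 and 12.39 in WENRC, 11.42 and 11.48 in RANKL, then 9.49 and 10.63 in ENRI. The cultures stood in that order without overlap. Smoc2 was 5.5-fold higher in WENRC than in ENRI (log2 change 2.46, SE 0.36, limma FDR 0.0146) and 2.62-fold higher in RANKL than in ENRI (1.39, SE 0.36, limma FDR 0.0432). The latter was 0.82 without ENRI 1 and 1.96 without ENRI 2, and the former 1.89 and 3.03. The RANKL difference from WENRC, -1.07 (limma FDR 0.112), did not pass with all 6 libraries; with only the 4 compared its limma FDR was 0.00103, and quantile normalization gave -1.64 (limma FDR 0.0365). 4930474M22Rik lies inside Smoc2 on the other strand and read 8.66 and 8.62 in WENRC, 7.68 and 7.90 in RANKL, then 5.86 and 6.31 in ENRI.

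Slc12a2 (NM_009194, chromosome 18, 58038332 to 58106475, + strand) encodes NKCC1, the basolateral sodium, potassium and chloride cotransporter that loads secreting crypt cells with chloride. Its values were 12.74 and 12.70 in WENRC, 12.35 and 12.40 in RANKL, then 12.07 and 10.38 in ENRI. The gene passed in none of the comparisons, and the ENRI libraries lay far apart. WENRC minus ENRI was 1.5 (95% interval 0.26 to 2.73, limma FDR 0.101), RANKL minus ENRI 1.16 (limma FDR 0.159) and RANKL minus WENRC -0.34 (-1.58 to 0.90, limma FDR 0.709). Without ENRI 1 the RANKL excess over ENRI was 2.0 (limma FDR 0.00013), and without ENRI 2 it was 0.31. The WENRC excess was then 2.34 (limma FDR 0.000142) and 0.65 (limma FDR 0.022).

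**Figure D1:**
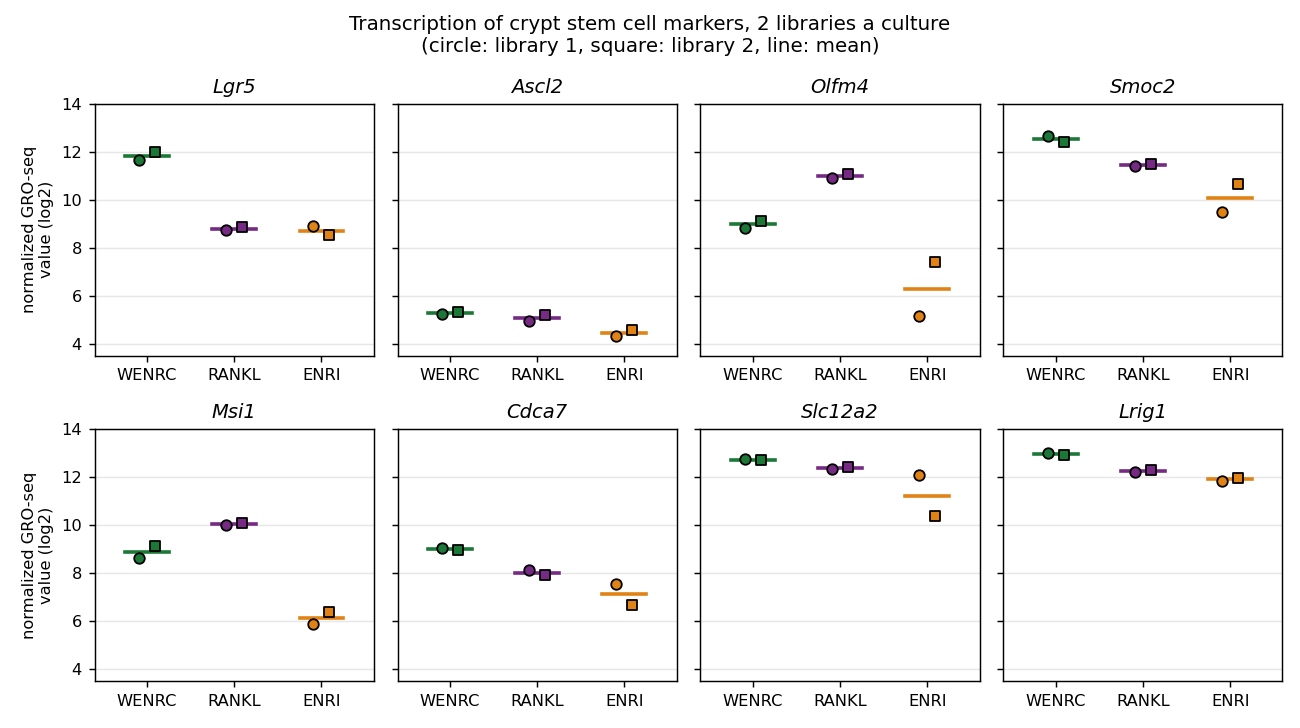
Normalized GRO-seq value (log2, y axis) of each of the 8 markers in WENRC, RANKL and ENRI (x axis), with library 1 as a circle, library 2 as a square and the mean as a line. Lgr5 reaches 11.64 and 11.99 in WENRC and stays under 9 in the other cultures, whereas Olfm4 and Msi1 are highest in RANKL.

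Seen by comparison, WENRC against ENRI gave the same direction for all 8 genes. Of the 8, 7 were called higher in WENRC and none lower, with Slc12a2 not passing, while 4.85% of all tested genes were called higher and 9.74% lower (14.6% in either direction). Their median change was 2.17, against -0.01 over all tested genes. WENRC and ENRI libraries did not overlap for 8 of 8 genes, and for 58.5% of all tested genes. With the mouse as a block all 8 were called, Slc12a2 at a limma FDR of 0.0429, and 3545 of the 16563 tested genes. The calls rest on the spread shared with the RANKL libraries. With only the 4 WENRC and ENRI libraries limma called 0 of 8, and 0 of all tested genes. At an unadjusted p under 0.05 the same fit had 8 of 8, and 4074 of all tested genes. With the block it called 2, Lgr5 and Msi1, and 124 of all tested genes. The marker count also fell with 1 RANKL or WENRC library left out, as did the count over all tested genes. The authors' deposited table called 6 of 8, and 12.5% of tested genes. Single calls near the threshold also depended on other settings: Olfm4 lost its call with no filter on low values (limma FDR 0.0575), no variance trend (0.055) and upper quartile recentring (0.0503), and Ascl2 with no filter (0.0686).

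RANKL against ENRI moved fewer of the markers. Of the 8, 3 were called higher in RANKL, Olfm4, Msi1 and Smoc2, and none lower, while 10.4% of tested genes were called higher, 10.5% lower and 20.9% either way. The authors' deposited table called the same 3 genes, and 19.6% of tested genes. The median change was 1.02, against 0.00 over all tested genes. All 8 differences were positive, and Lgr5 was the only gene whose RANKL and ENRI libraries overlapped (64.7% of tested genes did not overlap). With the mouse as a block Ascl2 (limma FDR 0.0454) and Cdca7 (limma FDR 0.0348) also passed, for 5 in all, and 4749 of the 16563 tested genes. RANKL is paired with neither mouse, so p-values with the block may be too small here. The marker count rose without ENRI 1 and fell with 1 RANKL or WENRC library left out, as did the count over all tested genes. Smoc2 lost its call with the 4 libraries compared (limma FDR 0.0894), with no filter (0.0513) and with upper quartile recentring (0.0507).

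RANKL against WENRC divided the set. Msi1 was called higher in RANKL, and Lgr5 and Lrig1 lower, 3 of 8 against 12.1% of tested genes called either way (8.53% higher and 3.62% lower). The median change was -0.52, against -0.01 over all tested genes. Libraries of the 2 cultures did not overlap for 8 of 8 markers, nor for 68.6% of tested genes. With the mouse as a block 5 were called, with Olfm4 and Cdca7 (limma FDR 0.0367) added, and 2945 of the 16563 tested genes. RANKL is paired with neither mouse, so p-values with the block may be too small here. With only the 4 libraries compared 6 were called, with Smoc2 as the sixth, and 5194 of the tested genes. The marker count rose without either ENRI library and fell with 1 RANKL or WENRC library left out, as did the count over all tested genes. With 1 library left out, the Lgr5 change was -3.19 to -2.84, and its call was lost without either RANKL library. The authors' deposited table called 7 of 8, all but Ascl2, 2 higher and 5 lower, and 27.8% of tested genes.

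**Figure D2:**
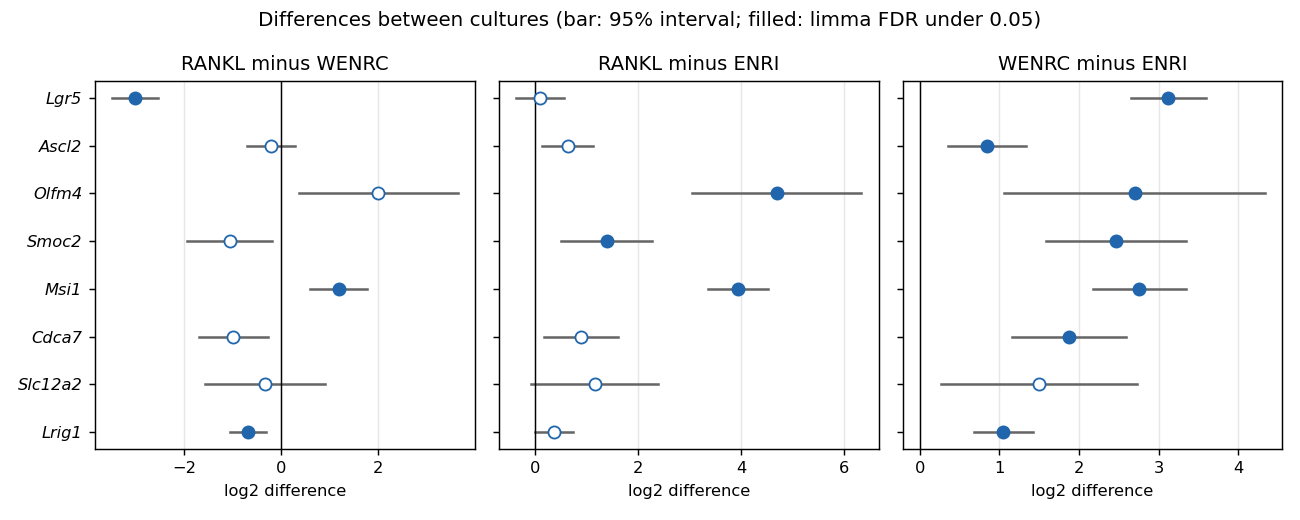
Log2 difference between cultures (x axis) for each of the 8 markers (y axis) in 3 comparisons, with the limma 95% interval as a bar and filled points at an FDR under 0.05. Filled points are 7 for WENRC minus ENRI, 3 for RANKL minus ENRI and 3 for RANKL minus WENRC, where Lgr5 stands apart at -3.02.

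The order of the genes by level was compared per length, as log2 value minus log2 of the gene's length in kb. In WENRC the order ran from Slc12a2 (6.63) and Lrig1 (6.37) through Cdca7 (5.58), Smoc2 (5.55), Lgr5 (4.71), Olfm4 (4.54) and Msi1 (4.25) to Ascl2 (3.98). Cdca7 and Smoc2 differed by less than either SD, and each pair of neighbours from Lgr5 down by less than the larger SD of the pair. In RANKL Olfm4 led with a level per kb of 6.54, before Slc12a2 (6.29), Lrig1 (5.68), Msi1 (5.44), Cdca7 (4.59), Smoc2 (4.48) and Ascl2 (3.77), and Lgr5 was last with 1.69; Cdca7 and Smoc2 again differed by less than the larger of their SDs. Lgr5 thus moved from the fifth place to the last. In ENRI Lrig1 (5.32) and Slc12a2 (5.13) led on the same scale, Cdca7 (3.70), Ascl2 (3.14) and Smoc2 (3.09) followed, and Olfm4 (1.84), Lgr5 (1.60) and Msi1 (1.5) formed the low end. Within each of these sets, neighbours differed by less than the SD of one of the pair.

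Profiles over the 6 libraries were compared after centring each gene on its own mean, by root mean square (RMS) distance in log2 units; points share libraries and scaling, and 2 come from each culture. Among the 8 genes the closest pair was Ascl2 and Lrig1 (0.211, Pearson r 0.877), then Cdca7 and Slc12a2 (0.363), and the farthest was Lgr5 and Olfm4 (2.40). Flat profiles lie near each other by this distance, and those of Ascl2 and Lrig1 were flatter. By Pearson r the closest pair of the 8 was Olfm4 and Msi1 (0.961). Msi1 was the second nearest of all 16563 genes to Olfm4 (0.636, Pearson r 0.961), after Gm8989 (0.615) and before Htr4, Gm8979 and Clca3b. The genes nearest Msi1 were Izumo1 (0.225), Clca3a2, Clca3b, Tnfrsf19 (0.397) and Axin2 (0.529). Nearest Lgr5 was its overlapping A930009A15Rik (0.371, r 0.978), followed by Moxd1 (0.393, r 0.978), Stc2 (0.451), Chac1 (0.477) and Slc7a5 (0.577). Slc38a1 (0.118), Eif4ebp1, Asns, Slc1a4 and Eldr lay nearest Cdca7, and Pla2g12a (0.0911), Dtl, Ranbp1, Notch2 and Syngr1 nearest Slc12a2. For Smoc2 they were its overlapping 4930474M22Rik (0.249), Stra6l, Hmga2, Aldh1l2 and Rgcc. For the flatter profiles, Erfe (0.0604), Zbed3, Tmem210, Dna2 and Fgd1 lay nearest Lrig1, and Gm13830 (0.0689), Chek1, Rps23, Pank4 and Slc39a8 nearest Ascl2.

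A further 26 genes known from crypt stem cells were examined beside the 8, of which 25 were tested (all but Prelp). In WENRC against ENRI 9 were called higher and 0 lower, with a median change of 1.22 (4.85% of tested genes were called higher and 9.74% lower); these were Axin2 (2.95), Tnfrsf19 (2.89), Phgdh, Rgmb, Hopx, Car12, Znrf3, Ephb3 and Ephb2. The median was 0.58 without ENRI 2 and 1.75 without ENRI 1. With the mouse as a block 12 were called higher and 1 lower, where 3545 of the 16563 tested genes were called (2416 without it). The count of calls rose without either ENRI library and fell with 1 RANKL or WENRC library left out, as did the count over all tested genes. In RANKL against ENRI 9 were higher, among them Tnfrsf19 (4.58, limma FDR 0.00104) and Axin2 (3.12, limma FDR 0.00205), and 1 was lower, with a median of 1.16 that was 0.30 without ENRI 2 and 1.80 without ENRI 1; 10.4% of tested genes were called higher and 10.5% lower. The count of 10 calls was 13 with the mouse as a block, where 4749 of the 16563 tested genes were called (3464 without it). It rose without either ENRI library and fell without either RANKL library, as did the count over all tested genes. In RANKL against WENRC 2 were higher and 2 lower, with a median of 0.00, where 8.53% and 3.62% of tested genes were called. The count of 4 was 7 with the mouse as a block, where 2945 of all tested genes were called (2012 without it). It rose without either ENRI library and fell with 1 RANKL or WENRC library left out, as did the count over all tested genes. RANKL is paired with neither mouse, so its counts with the block may be too high.

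Tnfrsf19, the receptor Troy and a Wnt target, read 10.89 and 10.89 in RANKL, 8.92 and 9.48 in WENRC, then 6.57 and 6.06 in ENRI. It was higher in RANKL than in WENRC by 1.69 (limma FDR 0.0129), as was Scn2b, a sodium channel subunit (1.69, limma FDR 0.00606). Hopx, a homeodomain protein of reserve stem cells, read 10.87 and 10.66 in WENRC, 9.20 and 9.29 in RANKL, then 9.54 and 8.70 in ENRI. It was lower in RANKL than in WENRC by 1.52 on the log2 scale (log2 change -1.52, limma FDR 0.0224), the order of cultures seen for Lgr5. Sp5, a Wnt-induced zinc finger factor, was lower in RANKL (5.51 and 5.27) than in WENRC (6.85 and 6.77; -1.42, limma FDR 0.0133) and than in ENRI (6.86 and 7.24; -1.66, limma FDR 0.00651). Axin2, a feedback inhibitor of Wnt signalling, was at 11.93 and 12.08 in RANKL and 11.64 and 12.02 in WENRC, a difference of 0.18 with a 95% interval of -0.38 to 0.73.

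**Figure D3:**
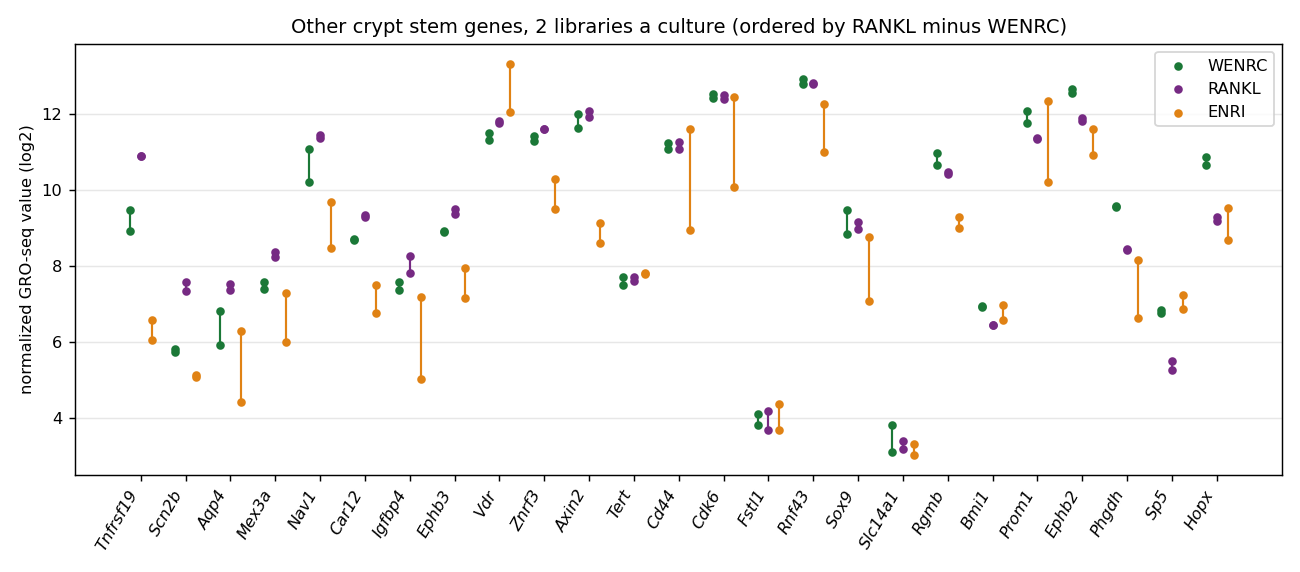
Normalized GRO-seq values (log2, y axis) of the 25 tested further crypt genes (x axis, ordered by RANKL minus WENRC), with 1 point a library and a line joining the 2 libraries of a culture. Tnfrsf19 and Scn2b lie at the RANKL-high end, Sp5 and Hopx at the other, and the ENRI libraries are often far apart.

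Partners of Lgr5 in Wnt reception were called at rates near those of all tested genes. Of 19 tested genes of the R-spondin and Wnt receptor module, 2 passed as higher in RANKL than in WENRC and none lower. These were the coreceptor gene Lrp6 (1.10, limma FDR 0.00971) and the Wnt effector gene Tcf7l2 (1.25, limma FDR 0.0268). Over all tested genes 8.53% were called higher and 3.62% lower. Against ENRI, RANKL was higher in 3 and lower in 1, where 10.4% and 10.5% of all tested genes were. WENRC was higher than ENRI in 1 and lower in 1, where 4.85% and 9.74% of all tested genes were. Lgr4, the widely expressed relative of Lgr5, read 12.48 and 12.58 in RANKL, 11.78 and 11.85 in WENRC, then 11.78 and 11.40 in ENRI. It was higher in RANKL than in ENRI by 0.94 (limma FDR 0.0185), and its difference of 0.71 from WENRC did not pass (limma FDR 0.0538). Lgr6, the remaining relative, was low throughout, at 3.72 to 4.53. Znrf3, the ubiquitin ligase that removes Wnt receptors and is held off by R-spondin, was higher than in ENRI in both RANKL (1.71, limma FDR 0.0108) and WENRC (1.46, limma FDR 0.0223). The Wnt receptor gene Fzd5 was lower than in ENRI in both RANKL (-0.98, limma FDR 0.0267) and WENRC (-1.21, limma FDR 0.0209).

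Relatives of the markers by sequence were examined too. Of 16 tested paralogs limma called 0 between RANKL and WENRC, against 12.1% of all tested genes. At an unadjusted limma p under 0.05 there were 3 of 16, and 4858 of all 16563 tested genes. Against ENRI, RANKL was higher in Msi2 (1.09, limma FDR 0.0251) and Lgr4 and lower in Slc12a3 (-1.65, limma FDR 0.0202). Of all tested genes, 10.4% were called higher and 10.5% lower in that comparison, so 2 and 1 of 16 are near those shares. Lrig2 read 0.68 higher in RANKL than in WENRC (limma FDR 0.0501). Of the ErbB receptors, which Lrig1 opposes, Erbb2 (0.79, limma FDR 0.0337) and Erbb3 (1.10, limma FDR 0.0224) were higher in RANKL than in WENRC. Egfr (0.02, 95% interval -1.51 to 1.54) and Erbb4 (-0.36, -2.97 to 2.24) did not pass. Erbb2 and Erbb3 were also lower in WENRC than in ENRI (log2 changes -0.78 and -1.81, limma FDR 0.0331 and 0.00961). Of all tested genes 9.74% were called lower there.

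The H3K27me3 comparison of RANKL with WENRC rests on regions the authors called in one culture with the other as control, so each table holds 1 direction, every region has an authors' fold of at least 2, and there is no replicate check. Tags are RANKL counts (32.7 M tags pooled) and WENRC counts scaled by 0.9 to the same depth (36.3 M tags before). Intervals are exact 95% binomial ones and cover counting error only. Of 35798 RANKL-higher regions 19 were assigned to 6 of the 8 genes, and of 13607 WENRC-higher regions 14 were assigned to 5. Within 5 kb of the start site, 5 of 8 genes had a RANKL-higher region (Lgr5, Ascl2, Olfm4, Smoc2 and Slc12a2), against 18.0% of tested genes, and 1 of 8, Ascl2, had a WENRC-higher one, against 5.01%. At any distance the shares of tested genes were 32.3% and 23.3%.

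The longest region within 5 kb of any of the 8 start sites lay over the Lgr5 start site. It ran from 115022107 to 115026399 on chromosome 10, 4292 bp from upstream of the start into intron 1, with its centre 583 bp from the start. It held 303 RANKL tags against 92.7 scaled WENRC tags, 70.6 against 21.6 per kb, an authors' fold of 3.27 (interval 2.61 to 4.13). By tags it ranked 193 among all RANKL-higher regions. Lgr5 thus had more H3K27me3 at its start and 8.1-fold less transcription in RANKL than in WENRC. ENRI has no H3K27me3 values here. Farther upstream a smaller region was RANKL-higher (72.9 kb, 18 tags against 4.5) and 3 were WENRC-higher, 31.5 to 94.7 kb from the start, with folds of 2.70 to 3.15.

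Olfm4 had 7 RANKL-higher regions, the most of the 8 genes in that direction, and its transcription also read higher in RANKL. One covered the start site (80400045 to 80401451 on chromosome 14, in mm9), with 83 tags against 17.1, a fold of 4.85 (interval 2.92 to 8.46). A pair of others lay in intron 1, 3.0 and 4.8 kb from the start, with folds of 2.28 and 2.55. Another 3 lay 10.4 to 15.3 kb upstream, with folds of 2.42 to 2.68, and the last lay 216.1 kb downstream. The single WENRC-higher region was 235.0 kb downstream.

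Ascl2 had a region of each direction close to its start. The RANKL-higher region covered the 3′ part of the gene (150152531 to 150154063 on chromosome 7), with 85 tags against 25.2, a fold of 3.37 (interval 2.18 to 5.37). The WENRC-higher region lay upstream (150155992 to 150157480), its centre 1567 bp before the start, with 77.4 scaled WENRC tags against 37 RANKL tags, a fold of 2.09 (interval 1.41 to 3.16). It was the only WENRC-higher region within 5 kb of any of the 8 starts. Another WENRC-higher region lay 13.6 kb upstream.

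Smoc2, Slc12a2 and Msi1 had smaller or more distant RANKL-higher regions. A Smoc2 region ended just before the start site (14415639 to 14416443 on chromosome 17), with 36 tags against 9.9, a fold of 3.64 (interval 1.81 to 7.92), and a further one 27.3 kb upstream had 18 tags against 0.9, so that its fold of 19.99 has an interval of 3.16 to 833.29. Slc12a2 had 2 regions in intron 1, 1.4 and 3.4 kb from the start, with 24 tags against 4.5 and 20 against 3.6, and 2 upstream with folds of 3.74 and 4.15. Its 4 WENRC-higher regions lay 113.3 to 153.5 kb away, 3 of them inside another gene. Msi1 had none within 5 kb; a region of 5153 bp lay 33.5 kb upstream, with 284 tags against 99.9, a fold of 2.84 (interval 2.28 to 3.57). Cdca7 had WENRC-higher regions only, 4 of them, 44.3 to 110.7 kb away, and Lrig1 had no region in either table.

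**Figure D4:**
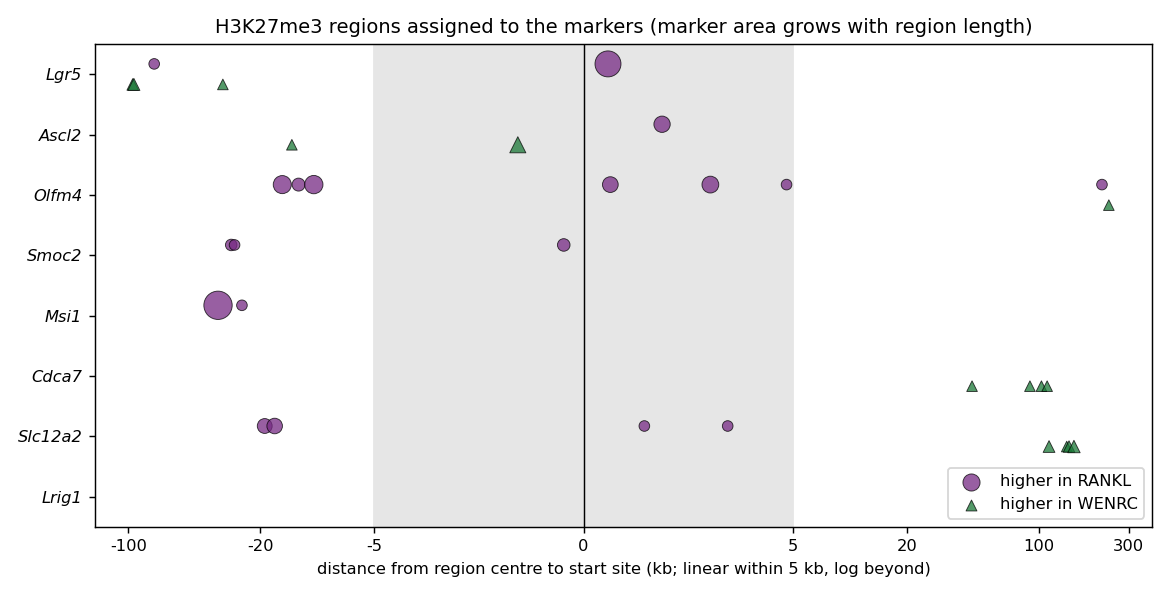
Distance of each H3K27me3 region's centre from the start site of the marker it was assigned to (x axis, kb, linear within 5 kb and logarithmic beyond; shaded band, 5 kb on either side), with 1 row a gene, circles for RANKL-higher and triangles for WENRC-higher regions and area growing with length. Within the band lie 8 RANKL-higher regions of 5 genes and 1 WENRC-higher region, at Ascl2.

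Set beside transcription, the 5 genes with a RANKL-higher region within 5 kb read lower in RANKL than in WENRC in 4 cases and higher in Olfm4, and of the 5 Lgr5 alone was called. Lrig1, called lower in RANKL, had no region, and Msi1, called higher, had RANKL-higher regions only at a distance. At an authors' fold of at least 4, RANKL-higher regions within 5 kb were left at 2 of 8 genes, Olfm4 and Slc12a2, against 3.3% of tested genes, and WENRC-higher ones at none, against 1.23%. Among the 26 further crypt genes 14 had a RANKL-higher region within 5 kb (13 of the 25 tested, against 18.0% of tested genes). None had a WENRC-higher one within 5 kb, where 5.01% of tested genes did. The 14 included both directions of transcription: Tnfrsf19 (highest fold 5.11) and Scn2b (11.11) were higher in RANKL, and Sp5 (4.19) was lower.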

How the data were processed

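GRO-seq was measured in 6 libraries and H3K27me3 ChIP-seq in 3. The submitters' processing notes name Bowtie2 2.3.4.1, HOMER and DESeq2, with mm9. HOMER counted reads along the full length of each RefSeq gene, per the file headers. The deposited GRO-seq values are normalized log2 values with the shape of a regularized logarithm, inferred from the values, so changes of low genes may be understated. Their depth is unknown. The authors' own log2 folds and adjusted p-values were also deposited, and their sign was turned to first-named minus second-named culture. Strand handling is not given in the sources used here.

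The authors' H3K27me3 tables hold RANKL tag counts, WENRC tags as a signal scaled by 0.9 (with a floor of 0.5 tags), their ratio as a fold, a p-value and normalized tags per 10 M tags, a signal, per the file headers; 12 blank rows were dropped.

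limma 3.58.1 (R 4.3.3) with a variance trend was fitted to all 6 libraries as 3 culture means, for genes with at least 2 libraries at log2 of 10 or more (16563 of 24505; 2131 were at 0 throughout). P-values are two-sided, Benjamini-Hochberg adjusted over all tested genes (FDR), called under 0.05; a 95% interval is of a single gene's difference. The fit was tested on simulated data with the same spread for a gene in all 6 libraries and no mouse pairing. That test therefore does not cover the unequal spread of the cultures or the shared mice. ENRI and WENRC libraries of the same number come from the same mouse per the labels, and their deviations correlated with r of 0.414 over 16563 genes. A block for mouse was therefore tried, with RANKL outside it. In RANKL comparisons, which are not paired, the block takes mouse differences out of the error, so its p-values there may be too small. Other alternatives were the 4 libraries compared, filters, scalings, no trend, each library left out, and for regions fold, distance and gene overlap. All 8 genes are named, other genes by list or as the 5 nearest by RMS distance. The genes and lists were chosen with earlier results of these data known. Promoters came from RefSeq (27025 genes); region and promoter coordinates are of different builds and were not compared.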

Additional observations from a re-analysis of the deposited data

How the results depend on the processing

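Over all alternatives, the direction of each marker's change was kept with 1 exception: Lgr5 between RANKL and ENRI, not called, ran from -0.09 (without ENRI 2) to 0.29 (without ENRI 1). Counts of calls moved more. With the 4 libraries compared, the counts over all genes were 5194 for RANKL against WENRC (2012 with 6 libraries), 1925 for RANKL against ENRI (3464) and 0 for WENRC against ENRI (2416; 4074 at an unadjusted p under 0.05), or 124 with the replicate block. For the 8 markers the same fits gave 6 (3) for RANKL against WENRC, and 0 (7; 8 at an unadjusted p under 0.05) or 2 with the block for WENRC against ENRI. For the further crypt genes they gave 12 (4), and 0 (9; 13 at an unadjusted p under 0.05) or 2. With all 6 libraries the replicate block gave 5 markers in each RANKL comparison (3 in both without it) and 7 further crypt genes (4) in RANKL against WENRC. RANKL is outside the block, so these counts may be too high. In RANKL against WENRC the authors' adjusted p gave 4604 genes, 7 markers and 13 further genes.

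Leaving out 1 library gave 0 to 5176 genes, 0 to 6 markers and 0 to 12 further genes in RANKL against WENRC, 64 to 6966, 1 to 5 and 1 to 21 in RANKL against ENRI, and 0 to 6650, 0 to 8 and 0 to 19 in WENRC against ENRI; a lone library is then assumed to vary like the others. The further genes' median in RANKL against ENRI was then 0.30 to 1.80. Upper quartile recentring moved the median of all genes from -0.01 to -0.12 for RANKL against WENRC and to 0.10 for WENRC against ENRI. It moved the share of calls that were higher from 70.2% to 53.3% and from 33.2% to 54.1%; quantile normalization gave 58.7% and 51.7%. RANKL-higher regions of the markers were 7 at a fold of at least 4, 8 within 5 kb and 7 in the gene body (19 in all), and WENRC-higher ones 3, 1 and 0 (14). With 2 libraries a culture and 1 value a culture for H3K27me3, precision is limited, and GRO-seq depth is unknown. Except where a smaller set of libraries or regions makes the count, the cause of these changes was not tested.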
